A study of Homo sapiens with 16 samples.

Results

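The genes described here are 10 components of the NF-kappaB system: the cytoplasmic inhibitors NFKBIA, NFKBIB and NFKBIE, the feedback enzymes TNFAIP3 and BIRC3, and the 5 subunit genes NFKB1, NFKB2, RELA, RELB and REL. They were taken by gene name from GENCODE 29, an annotation of the human genome build GRCh38, out of 35075 genes with matched transcripts. All 10 passed the filter on low counts and were among the 16787 genes tested. RNA was sequenced from HEK293 cells, a human embryonic kidney line, in 4 groups of 4 libraries. Each group overexpressed a different construct: GFP as the control, wild-type RNF43 (WT), the frameshift mutant RNF43 R117fs, or the frameshift mutant RNF43 G659fs. RNF43 is a membrane-bound ubiquitin ligase that clears Frizzled receptors, the receptors for Wnt proteins, from the cell surface. The R117fs frameshift lies ahead of the RING domain that carries the ligase activity, and the G659fs frameshift lies behind it. The labels do not name the vector or the time for which the constructs were expressed, and they do not say that replicates came from separate cultures, so the p-values measure the spread between these libraries, which may be technical.

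NF-kappaB transcription factors are dimers of subunits that share a DNA-binding Rel domain. In resting cells IkappaB proteins hold the dimers in the cytoplasm. Signals from receptors such as those for TNF activate the IkappaB kinase (IKK) complex, the IkappaB protein is degraded, and the freed dimer enters the nucleus and binds DNA at kappaB sites. Among the genes it induces are those of its own inhibitors, above all NFKBIA and TNFAIP3, which end the response, and for that reason the RNA of these genes is widely used as a readout of the pathway.

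Promoters of the members are shown for the kappaB sequence, since several of these genes are known targets of the factor they encode or restrain. RefSeq promoter windows (GRCh38.p14) were matched by symbol for 8 of the 10 members, with 13 windows in all, and the 250 bases before each start were searched on both strands. NFKBIE and RELB had no window. The published NF-kappaB consensus, 10 bases long, occurred in 8 of the 13 windows, belonging to 7 of the 8 members, and 5.21% of all 35116 windows of this length held it. The motif was chosen with the windows in view, and several of the members are known targets, so these shares are a description only. The promoter of NFKBIA is shown whole, 5′ to 3′ on the gene's strand (chr14:35404750-35404999, minus strand), because NFKBIA had the smallest p-value of the members in 5 of the 6 comparisons (all but R117fs against GFP); capitals mark the match, which starts 81 bases before the start site.
NFKBIA: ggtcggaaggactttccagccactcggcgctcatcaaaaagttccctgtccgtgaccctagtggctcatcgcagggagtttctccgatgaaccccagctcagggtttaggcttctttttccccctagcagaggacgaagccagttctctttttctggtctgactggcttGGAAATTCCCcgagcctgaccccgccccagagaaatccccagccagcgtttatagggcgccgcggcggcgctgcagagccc

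For other members only the match with its flanks is shown, 30 bases each, so that a gene that rose can be set beside genes that did not; capitals mark matches, on either strand. The TNFAIP3 stretch (chr6:137867188-137867217) holds 2 matches in tandem. The NFKB2 stretch (chr10:102394462-102394491) holds 2 that overlap, out of 5 match positions in its 3 windows. The NFKB1 stretch is at chr4:102501300-102501329, the REL stretch at chr2:60881518-60881547, the BIRC3 stretch at chr11:102317275-102317304 and the NFKBIB stretch at chr19:38899932-38899961. The REL and NFKBIB stretches also hold 2 matches each that overlap, and the NFKB1 stretch holds 1. BIRC3 had 2 match positions in its window, of which the stretch shown holds 1. All 6 stretches are on the plus strand, and all but that of BIRC3 overlap an exon that GENCODE 29 annotates for the gene.
TNFAIP3: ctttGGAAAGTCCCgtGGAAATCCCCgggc
NFKB2: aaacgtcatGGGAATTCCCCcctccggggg
NFKB1: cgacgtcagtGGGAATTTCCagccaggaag
REL: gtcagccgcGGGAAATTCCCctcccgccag
BIRC3: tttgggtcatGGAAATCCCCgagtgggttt
NFKBIB: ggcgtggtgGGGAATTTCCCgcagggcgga
Neither of the 2 RELA windows held the consensus. A match describes the letters only; binding was not measured.

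Total estimated counts ran from 20364357 to 46779570 per library, and RNF43 itself was at 13.2 to 50.3 CPM in the GFP libraries and at 30190 to 94570 CPM in the 12 construct libraries. CPM is a gene's count scaled to the library's size with TMM factors. Among the R117fs libraries replicate 1 had the least RNF43, 30190 CPM against 69370 to 94570 in the others. R117fs replicate 4 lay apart from its group: its genes deviated from the other R117fs libraries with an SD of 0.579 on the log2 scale (0.272 to 0.409 in the other 15 libraries), and across genes the deviation followed GC content (Spearman rho = 0.799, over genes, which are not independent replicates). Of 8 genes that HEK293 cells are known to express, such as PAX2 and VIM, all were tested; their sums were 1062 to 1204 CPM in GFP, 1403 to 1515 in WT, 1210 to 1394 for R117fs and 1317 to 1419 for G659fs, each above GFP, while in TPM the sums of R117fs (802.8 to 1027) and G659fs (912.6 to 1000) overlapped GFP (822 to 943.2) and those of WT (1003 to 1031) did not. Over 7 genes, markers of haematopoietic cells summed to 11.99 to 16.2 TPM in GFP libraries and to 7.70 to 9.17 (WT), 6.74 to 8.64 (R117fs) and 8.86 to 10.6 TPM (G659fs) in the others; the defining markers PTPRC and CD3E were at most 0.184 and 0.0736 CPM in any library. Fibroblast markers summed to 21.2 to 23.2, 14.0 to 19.6, 16.4 to 27.8 and 22.8 to 31.8 TPM over 5 genes. The 13 protein genes of the mitochondrial genome, a common gauge of RNA quality, summed to 12540 to 15440 CPM in GFP. In the other groups they summed to 13700 to 16800 (WT), 14230 to 15030 (R117fs) and 14940 to 16500 CPM (G659fs). How far these marker sums bear on the members was not tested. In bulk RNA a change in how many cells express a gene cannot be told apart from a change in RNA per cell.

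Levels of different genes can be compared only per length, in TPM (the deposited transcript abundance scaled by effective length, summed per gene). In GFP cells RELA, the transactivating subunit of the most common dimer, was the highest of the 10 at 58.0 ± 6.91 TPM (SD, n = 4), followed by NFKB2, precursor of p52, at 31.9 ± 1.61. NFKBIA, NFKBIB and NFKB1, precursor of p50, followed at 25.0 ± 2.60, 21.6 ± 1.30 and 20.5 ± 1.36 TPM; the NFKBIA and NFKBIB libraries overlapped, and so did those of NFKBIB and NFKB1. REL stood at 12.7 ± 1.02, RELB at 8.69 ± 0.383 and NFKBIE at 8.23 ± 0.207, the last pair overlapping. TNFAIP3 was at 3.90 ± 0.799 and BIRC3 at 0.739 ± 0.250 TPM, each below every library of the gene before it. The GFP cells thus held RNA of all 5 subunits, with RELB the lowest of them and RELA the highest. In G659fs cells NFKBIA, at 45.2 ± 3.98 TPM, stood above NFKB2 (37.6 ± 2.65) in mean, with libraries that overlapped.

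**Figure D1:**
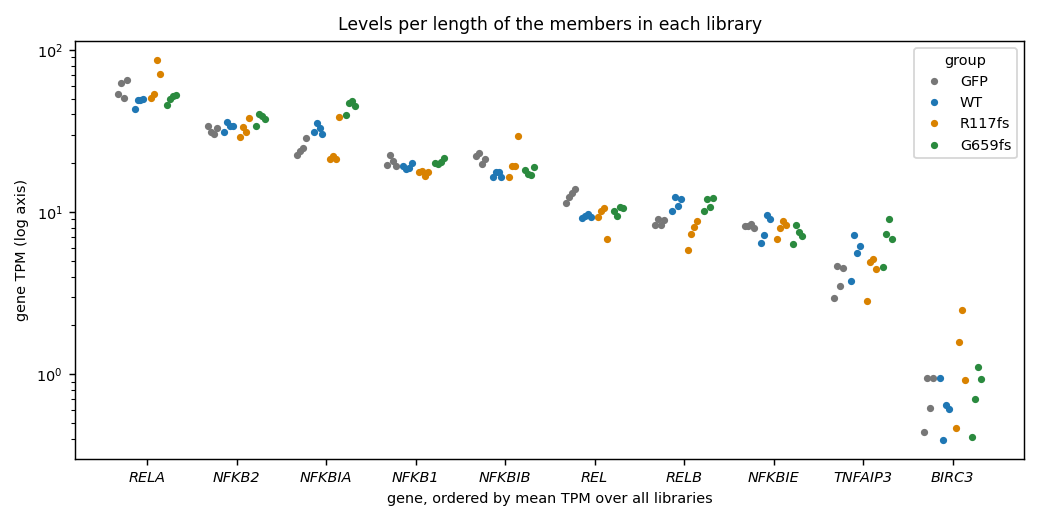
Gene TPM (log axis) of the 10 members in each of the 16 libraries, coloured by group, with genes ordered by their mean over all libraries. RELA was highest and BIRC3 lowest throughout, and the NFKBIA points of G659fs lie near those of NFKB2.

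Wild-type RNF43 was set against GFP to see what the intact ligase changed. NFKBIA, TNFAIP3 and the subunit gene RELB were 1.42-fold, 1.73-fold and 1.502-fold higher in WT, REL was lower, and the other 6 members were not called. That is 3 of 10 members higher and 1 lower at an edgeR adjusted p under 0.05, 4 in all, where 21.5% of all tested genes were called (9.85% higher and 11.6% lower). The median log2 fold change over the members was -0.00 and over all tested genes 0.00. The libraries of the 2 groups were apart for 4 members that were higher and 2 that were lower, against 17.1% and 16.7% of all tested genes.

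Against GFP, R117fs showed none of these 3 rises. NFKBIA, TNFAIP3 and RELB lay at log2 differences of -0.00 ± 0.09, 0.13 ± 0.16 and -0.06 ± 0.13 (± SE). REL was the 1 member called, and it was lower; 0 members were called higher, where 15.6% of all tested genes were called (7.04% higher and 8.57% lower). At an unadjusted p under 0.05 1 member was higher and 1 lower, and DESeq2 also called 1 higher (BIRC3) and 1 lower. The libraries were apart for 0 members that were higher and 1 that was lower, against 7.29% and 9.19% of all tested genes. The median over the members was 0.05 and over all tested genes -0.01.

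In G659fs against GFP NFKBIA was 1.93-fold, TNFAIP3 1.96-fold, RELB 1.499-fold and NFKB2 1.25-fold higher. In this comparison 4 of 10 members were higher and 0 lower, where 25.4% of all tested genes were called (11.6% higher and 13.8% lower). At an unadjusted p under 0.05 1 member was lower, REL, and DESeq2 called it. The libraries were apart for 5 members that were higher and 2 that were lower, against 19.1% and 18.8% of all tested genes. The median over the members was 0.10 and over all tested genes 0.00. The 3 comparisons share the GFP libraries, so their values are not independent of each other.

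**Figure D2:**
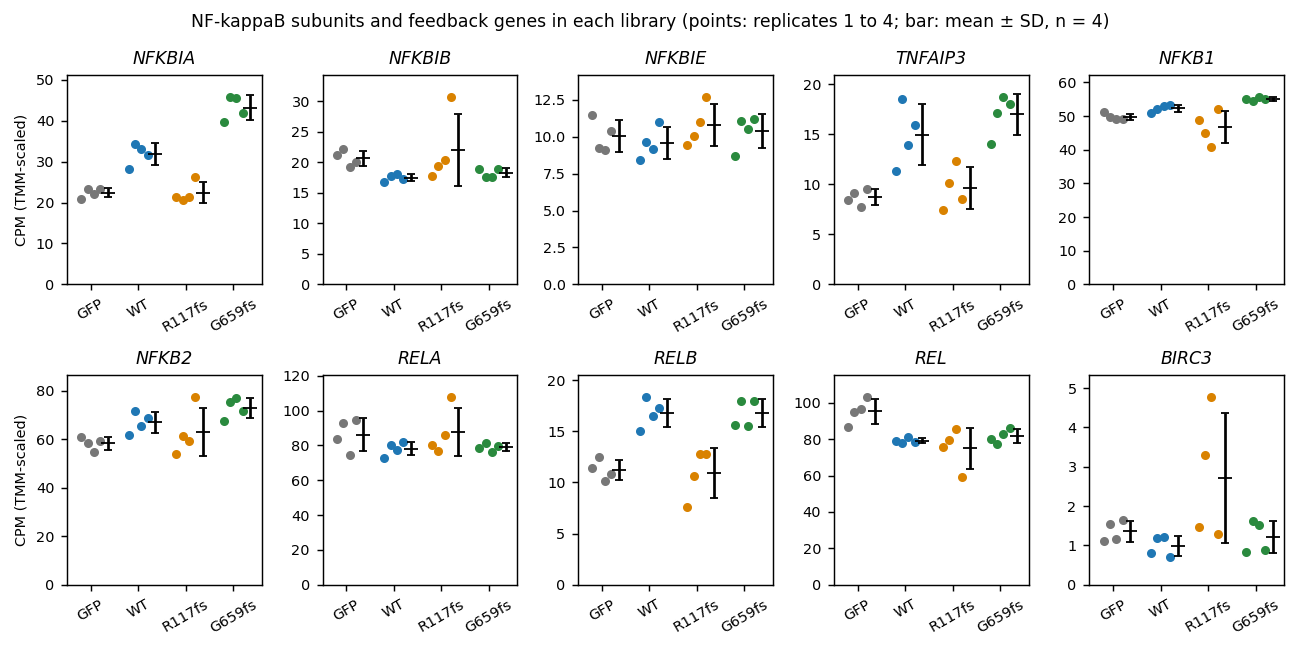
CPM of each member in each library (points, replicates 1 to 4 from left to right) with the group mean ± SD (n = 4). NFKBIA, TNFAIP3 and RELB sit higher in WT and G659fs than in GFP. R117fs replicate 4 is the highest R117fs library for NFKBIA, NFKBIB, NFKBIE, NFKB1, NFKB2 and RELA and the lowest for REL and BIRC3.

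NFKBIA encodes IkappaB-alpha, the inhibitor that is degraded and remade fastest (ENSG00000100906; chromosome 14, 35401511 to 35404749, minus strand). It was at 20.9, 23.3, 22.1 and 23.2 CPM in the 4 GFP libraries and at 28.1, 34.3, 33.1 and 31.6 in WT. In R117fs it was at 21.4, 20.7, 21.3 and 26.3 CPM, and in G659fs at 39.6, 45.8, 45.5 and 41.9. The groups formed 3 steps without overlap: GFP together with R117fs, then WT, then G659fs. The log2 fold change against GFP was 0.51 ± 0.08 in WT (edgeR adjusted p = 0.000484) and 0.95 ± 0.08 in G659fs (7.82e-07), higher in all 4 libraries of each. Both rises kept their call under each of the 16 alternative settings. G659fs also exceeded WT, by 0.44 ± 0.08 (0.00798), which was the 1 member called between these constructs; with an offset for effective length its edgeR adjusted p was 0.0769. R117fs lay below WT by -0.51 ± 0.09 (0.00208), and this call was lost with the length offset (0.0839) and when only the 8 libraries compared were fitted (0.0611).

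The other IkappaB genes were not called higher in this fit. NFKBIB encodes IkappaB-beta, a slower inhibitor (ENSG00000104825; chromosome 19, 38899700 to 38908893, plus strand, overlapping SIRT2 on the other strand). It was at 21.2, 22.2, 19.3 and 20 CPM in GFP, 16.8, 17.8, 18.1 and 17.3 in WT, and 19.0, 17.7, 17.6 and 19.0 in G659fs. All 8 libraries of WT and G659fs lay below the 4 GFP libraries, yet the differences of -0.24 ± 0.12 and -0.18 ± 0.12 were not called (edgeR adjusted p = 0.176 and 0.316). Without R117fs replicate 4 the same differences were called (edgeR adjusted p = 0.00512 and 0.0279). They were also called with the 8 libraries alone (0.00864 and 0.0322) and with the GC trend removed (0.0217 and 0.0177). R117fs replicate 4 had entered the estimate of the spread with an NFKBIB value of 30.7 CPM, against 17.8 to 20.3 in the other R117fs libraries. Whether that value accounts for the missing call was not tested. NFKBIE encodes IkappaB-epsilon, which is also induced by NF-kappaB in many cells (ENSG00000146232; chromosome 6, 44258166 to 44265788, minus strand). It ranged from 8.43 to 12.7 CPM over the 16 libraries with every pair of groups overlapping, and its log2 differences against GFP were -0.07, 0.09 and 0.05 in WT, R117fs and G659fs. Among the 3 cytoplasmic inhibitors, then, the call was limited to NFKBIA in this fit.

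TNFAIP3 encodes A20, a ubiquitin-editing enzyme that shuts off signalling ahead of IKK (ENSG00000118503; chromosome 6, 137867188 to 137883312, plus strand, overlapping the antisense gene AL357060.1). It was at 8.40, 9.16, 7.71 and 9.50 CPM in GFP and 11.4, 18.6, 13.9 and 15.95 in WT. In R117fs it was at 7.43, 10.2, 12.3 and 8.58 CPM and in G659fs at 14.0, 17.15, 18.7 and 18.04. WT and G659fs lay wholly above GFP and overlapped each other, while R117fs straddled the GFP range. The log2 fold change was 0.79 ± 0.15 in WT (edgeR adjusted p = 0.00161) and 0.97 ± 0.15 in G659fs (0.000231), called under each alternative. R117fs was below WT by -0.66 ± 0.15 (0.0157) and G659fs above R117fs by 0.84 ± 0.15 (0.00154). The first of these was lost with the length offset (0.192), with the 8 libraries alone (0.12), without WT replicate 2 (0.0681) and without WT replicate 4 (0.0509).

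BIRC3 encodes cIAP2, a ubiquitin ligase at TNF receptors and itself a classical NF-kappaB target (ENSG00000023445; chromosome 11, 102317450 to 102339403, plus strand). It was not called higher in WT or G659fs. Its levels were low, with 22 to 124 reads per library. It was at 1.10, 1.55, 1.17 and 1.64 CPM in GFP, 0.811, 1.175, 1.21 and 0.713 in WT, and 0.836, 1.63, 1.51 and 0.885 in G659fs. In R117fs it was at 1.455, 3.305, 4.77 and 1.28 CPM, so replicates 2 and 3 stood above every other library of the series and replicates 1 and 4 within the GFP range. In the same 4 libraries RNF43 was at 30190, 79640, 94570 and 69370 CPM. For BIRC3 the difference of R117fs from GFP was 0.94 ± 0.34 and was not called (edgeR adjusted p = 0.0685), though it was with DESeq2 (0.0385), after removal of the GC trend (0.0157), without R117fs replicate 1 (0.0166) and without R117fs replicate 4 (0.0321). R117fs exceeded WT by 1.40 ± 0.35 (0.0204), and G659fs lay below R117fs by -1.04 ± 0.33 (0.0412); the first call was kept in 10 of 15 settings and the second in 6 of 15. The first was lost with the length offset (1.01, adjusted p = 0.187), the 8 libraries alone (0.115) and without WT replicate 1 (0.0572), WT replicate 4 (0.0615) or R117fs replicate 2 (0.0693), and the second had adjusted p up to 0.384.

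RELB was the subunit gene with the largest rises in WT and G659fs. It encodes the partner of p52 in the non-canonical branch and is a known NF-kappaB target (ENSG00000104856; chromosome 19, 45001430 to 45038198, plus strand). It was at 11.4, 12.4, 10.1 and 10.8 CPM in GFP, 15.0, 18.3, 16.5 and 17.3 in WT, and 15.6, 17.9, 15.5 and 17.97 in G659fs. In R117fs it was at 7.60, 10.7, 12.75 and 12.74. WT and G659fs did not overlap GFP or R117fs, and R117fs spread on both sides of GFP. The rise was 0.59 ± 0.13 in WT (edgeR adjusted p = 0.00318) and 0.58 ± 0.13 in G659fs (0.00278), and the difference between G659fs and WT was -0.00 ± 0.12 (0.991). R117fs was below WT by -0.65 ± 0.13 (0.00579; 0.0885 with the 8 libraries alone) and G659fs above R117fs by 0.65 ± 0.13 (0.00294).

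NFKB2, whose product p100 is both an inhibitor and the precursor of p52 (ENSG00000077150; chromosome 10, 102394110 to 102402529, plus strand), rose in G659fs. It was at 61.1, 58.7, 54.7 and 59.3 CPM in GFP and at 67.8, 75.3, 77.1 and 71.6 in G659fs, a difference of 0.32 ± 0.09 (edgeR adjusted p = 0.0136) that held under each alternative. WT, at 61.7, 71.7, 65.6 and 68.9, lay just above the GFP libraries without a call (0.20 ± 0.09, adjusted p = 0.127, and 0.011 without R117fs replicate 4). R117fs was at 53.95, 61.3, 59.4 and 77.4 CPM, its replicate 4 above every library of the other groups. NFKB1 (ENSG00000109320; chromosome 4, 102501329 to 102617302, plus strand) was not called against GFP in this fit. Its libraries spanned 49.1 to 51.1 CPM in GFP, 50.8 to 53.2 in WT and 54.4 to 55.7 in G659fs, with a wider span of 40.9 to 52.2 in R117fs. All 4 G659fs libraries lay above those of GFP and WT; the difference from GFP, 0.15 ± 0.06, had an edgeR adjusted p of 0.11 and was called with the 8 libraries alone (0.0103), with the GC trend removed (0.0393) and without R117fs replicate 4 (0.0193). G659fs exceeded R117fs by 0.24 ± 0.06 (edgeR adjusted p = 0.0215), a call lost without R117fs replicate 2 (0.0585), R117fs replicate 3 (0.0578), G659fs replicate 2 (0.0525) or G659fs replicate 3 (0.0627) and in the 8 libraries alone (0.174).

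RELA (ENSG00000173039; chromosome 11, 65653596 to 65663094, minus strand, overlapping the first bases of AP001362.2 on the other strand) was not called in any of the 6 comparisons in this fit; with the GC trend removed it was called lower in G659fs than in GFP (-0.15, edgeR adjusted p = 0.0432). Its GFP libraries spanned 74.2 to 94.5 CPM and held or overlapped those of WT (72.9 to 82.2), G659fs (75.9 to 81.4) and R117fs (76.7 to 107.6). REL, which encodes c-Rel, a subunit best known from lymphoid cells, was the member that fell (ENSG00000162924; chromosome 2, 60881521 to 60931610, plus strand, overlapping AC010733.2 on the same strand). It was at 86.6, 95.3, 96.7 and 103.1 CPM in GFP, 79.0, 77.9, 81.1 and 78.7 in WT, 75.9, 79.6, 85.4 and 59.2 in R117fs and 80.2, 77.4, 83.1 and 86.1 in G659fs. Each of the 12 construct libraries was below all 4 GFP libraries. The differences were -0.27 ± 0.09 in WT (edgeR adjusted p = 0.0332), -0.35 ± 0.09 in R117fs (0.0124) and -0.22 ± 0.09 in G659fs (0.0655). The G659fs difference, not called in this fit, was called with DESeq2 (adjusted p = 0.0441). By edgeR it was called with the 8 libraries alone (adjusted p = 0.00385) and with the GC trend removed (0.00816). The same held without GFP replicate 1 (0.0483) and without R117fs replicate 4 (0.00211). The WT call was lost when any single GFP or WT library was left out except GFP replicate 1 (0.0588 to 0.113) and with no filter (0.0566), and the R117fs call without GFP replicate 4 (0.0555) and with the 8 libraries alone (0.119); with the GC trend removed the R117fs difference was -0.20 and still called.

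**Figure D3:**
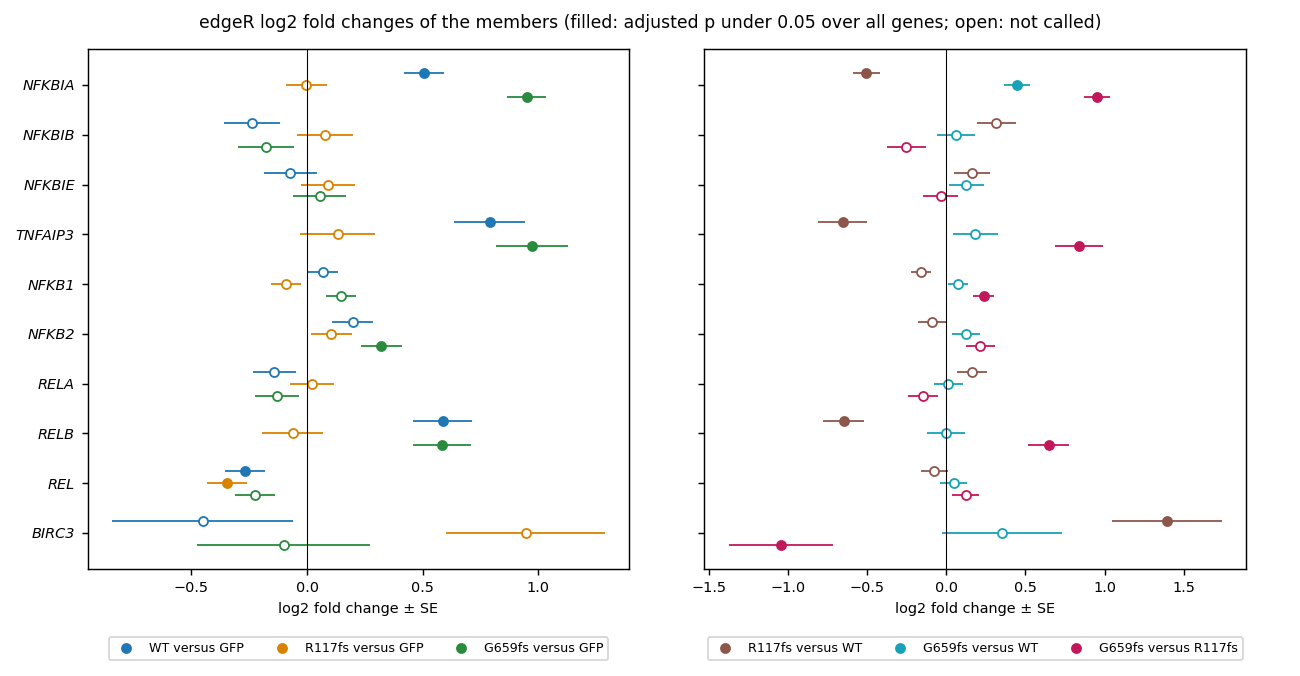
edgeR log2 fold changes ± SE of the 10 members in the 3 comparisons with GFP (left) and the 3 between constructs (right); filled points have an adjusted p under 0.05 over all tested genes. NFKBIA, TNFAIP3 and RELB are filled on the right of 0 in WT and G659fs against GFP and lie close to 0 in R117fs, while BIRC3 has the widest errors.

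The constructs were then set against each other, to see where the frameshift mutants differed from wild-type RNF43. Between R117fs and WT 4 of 10 members were called, BIRC3 higher and NFKBIA, TNFAIP3 and RELB lower, where 8.11% of all tested genes were called (4.5% higher and 3.62% lower). The libraries were apart for 1 member that was higher and 2 that were lower, against 7.01% and 8.32% of all tested genes. Between G659fs and WT 1 of 10 was called (NFKBIA), where 5.68% of all tested genes were (2.32% higher and 3.35% lower); 2 members had libraries apart and higher and 0 lower, against 12.3% and 14.5% of all tested genes. Between G659fs and R117fs 5 of 10 were called, NFKBIA, TNFAIP3, RELB and NFKB1 higher and BIRC3 lower, where 14.4% of all tested genes were (6.35% higher and 8.02% lower). The libraries were apart for 4 members that were higher and 0 that were lower, against 9.28% and 8.78% of all tested genes. The medians over the members were -0.08, 0.10 and 0.17, against -0.01, -0.00 and 0.00 over all tested genes. In the 8 libraries of R117fs and WT alone 0 members were called by edgeR (at an unadjusted p under 0.05 1 was higher and 3 were lower), in a fit that called 0.938% of all tested genes, although their log2 differences changed little (NFKBIA -0.49, TNFAIP3 -0.64, RELB -0.63 and BIRC3 1.42).

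In R117fs replicate 4 the members' differences from the rest of the group largely rose with GC content. BIRC3, REL, TNFAIP3, NFKB1 and NFKBIA, the lowest in GC, were the lowest and stood in GC order. RELB and NFKBIE lay below RELA, which is lower in GC than both. Against the other 3 R117fs libraries, NFKBIB (62.6% GC) was 0.68 higher on the log2 scale in that library, NFKB2 (61.2%) and RELA (59.55%) 0.41 higher each, RELB (65.2%) 0.33, NFKBIE (61.0%) 0.32 and NFKBIA (53.4%) 0.31 higher. NFKB1 (49.3%) was 0.22 higher, TNFAIP3 (49.3%) was at -0.19, REL (38.8%) at -0.44 and BIRC3 (35.8%) at -1.11. Without this library NFKBIA, TNFAIP3 and RELB in R117fs still lay within 0.16 of GFP, at -0.08, 0.16 and -0.15 (edgeR adjusted p = 0.478, 0.592 and 0.451). Without it the share of all tested genes that were called rose too, so the members' counts are given with it. Against GFP 6 members were called in WT (36% of all tested genes), 2 in R117fs (21.7%) and 7 in G659fs (39.4%). Between constructs 6 were called for R117fs with WT (9.48%), 1 for G659fs with WT (20.7%) and 6 for G659fs with R117fs (23.5%). With R117fs replicate 1 left out instead, 5 members were called for R117fs with WT (15.4%), against 4 (8.11%) with all libraries.

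**Figure D4:**
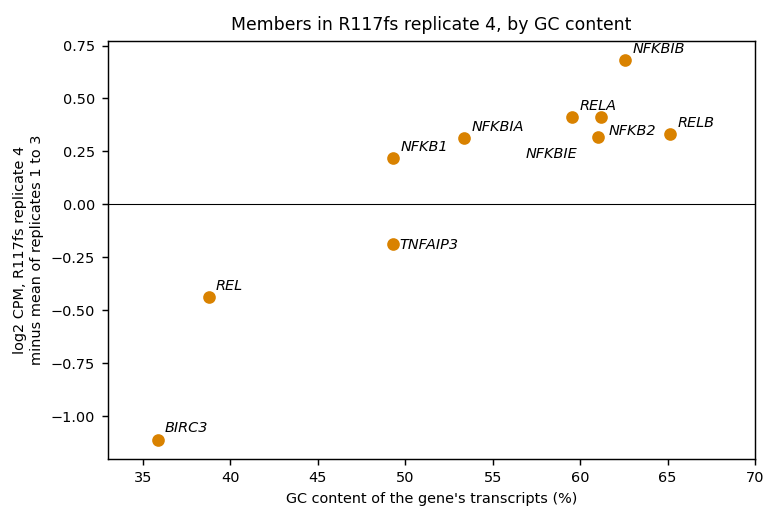
Difference in log2 CPM between R117fs replicate 4 and the mean of R117fs replicates 1 to 3 (vertical axis) against the GC content of the gene's transcripts in percent (horizontal axis), 1 point per member. BIRC3 and REL, the members lowest in GC, are lowest in replicate 4, and NFKBIB is highest at 0.68.

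Annotated transcripts carried the members unevenly. A single protein-coding transcript held most counts of NFKBIA (ENST00000216797.9, 89.2% to 94.2% over the group means) and REL (ENST00000295025.12, 98.3% to 98.9%). For NFKBIB a transcript annotated as a target of nonsense-mediated decay, ENST00000509705.3, held 41.3% ± 3.42 of the counts in GFP, 38.0% ± 2.10 in WT, 42.2% ± 6.20 in R117fs and 44.6% ± 5.04 in G659fs (SD, n = 4), about as many as the protein-coding ENST00000313582.5 (41.7% to 45.7%). TNFAIP3 counts were spread over several coding transcripts. Its ENST00000237289.8 took 20.3% ± 23.4 in GFP and 51.9% ± 24.8 in G659fs, SDs too wide to compare, so the rise of TNFAIP3 is given for the gene only.

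Across the 16 libraries log2 CPM of NFKBIA ran with that of TNFAIP3 (Pearson r = 0.866), RELB (0.821), NFKB2 (0.803) and NFKB1 (0.783), and TNFAIP3 ran with RELB (0.894). NFKBIB ran with RELA (0.846) and not with NFKBIA (-0.355), and BIRC3 opposed NFKB1 (-0.807). These values describe the libraries and share their groups and their GC differences. The genes most like NFKBIA were FRMD1 (r = 0.979), FZD9 (0.958), TAP2 (0.942), GPR50 (0.940) and ANO9 (0.940). The genes most like TNFAIP3 were the immediate early gene FOS (0.962), GADD45B (0.961), IL6R (0.959), LRP8 (0.955) and RHEBL1 (0.954).

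Other parts of the pathway were taken from lists chosen by function. Their counts stand against the shares of all tested genes called higher and lower: 9.85% and 11.6% in WT, 7.04% and 8.57% in R117fs and 11.6% and 13.8% in G659fs, each against GFP. Between constructs these shares were 4.5% and 3.62% for R117fs with WT and 2.32% and 3.35% for G659fs with WT. For G659fs with R117fs they were 6.35% and 8.02%. The IKK step had 10 genes, all tested. Against GFP 0 rose and 3 fell in WT: IKBKG, the regulatory subunit NEMO, by 0.38 ± 0.08 on the log2 scale, TAB2, an adaptor of the kinase TAK1, by 0.37 ± 0.12, and IKBKB, the catalytic subunit IKK-beta, by 0.27 ± 0.06. In R117fs 0 rose and 3 fell, IKBKG by 0.50 ± 0.08, the IKK-related kinase TBK1 by 0.43 ± 0.13 and IKBKB by 0.21 ± 0.06. In G659fs 0 rose and 2 fell, MAP3K14, the kinase of the non-canonical branch, by 0.40 ± 0.12 and IKBKG by 0.37 ± 0.08. IKBKG has a near-identical pseudogene, so its estimated counts are uncertain. The medians of the list were -0.19, -0.20 and -0.18, and between constructs 0 of the 10 were called by edgeR in the 3 comparisons, 0 had an unadjusted p under 0.05 and DESeq2 called 0. Against GFP DESeq2 called 0 higher and 3 lower in WT, 1 and 3 in R117fs, and 1 and 2 in G659fs.

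Receptor-proximal adaptors and ligases, 18 genes and all tested, had 0 to 4 calls in each comparison with GFP. In WT 0 were called against GFP by edgeR, with 2 higher and 2 lower at an unadjusted p under 0.05, and DESeq2 called 1 lower. In R117fs 2 rose and 2 fell: the TWEAK receptor TNFRSF12A fell by 0.69 ± 0.15 and the kinase RIPK1 by 0.21 ± 0.07, while the adaptor TRAF1 rose by 0.44 ± 0.11 and SHARPIN, part of the linear ubiquitin ligase complex, by 0.30 ± 0.10. In G659fs the kinase IRAK1 rose by 0.36 ± 0.09 and RNF31, the catalytic part of the linear ubiquitin ligase complex, fell by 0.37 ± 0.11. Between R117fs and WT, where 4.5% of all tested genes were called higher and 3.62% lower, TNFRSF12A (-0.54 ± 0.14) and RIPK1 (-0.29 ± 0.07) were lower. Between G659fs and R117fs TNFRSF12A (0.62 ± 0.14) and RIPK1 (0.31 ± 0.07) were higher and SHARPIN lower (-0.35 ± 0.10).

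Of 14 further negative regulators, 1 rose and 1 fell in WT against GFP (9.85% and 11.6% of all tested genes). It was 0 and 3 in R117fs (7.04% and 8.57%), and 1 and 1 in G659fs (11.6% and 13.8%). TNIP1, which binds A20, rose by 0.22 ± 0.07 in WT and 0.23 ± 0.07 in G659fs. The deubiquitinase CYLD fell by 0.24 ± 0.08 in WT and by 0.48 ± 0.08 in R117fs, where NKIRAS1 fell by 0.48 ± 0.10 and the ribonuclease gene ZC3H12A by 0.55 ± 0.18. NKIRAS1 fell by 0.27 ± 0.10 in G659fs. Between R117fs and WT edgeR called 0 of the 14, with 2 higher and 4 lower at an unadjusted p under 0.05. DESeq2 called 1 higher and 2 lower there. Between G659fs and WT edgeR and DESeq2 called 0, and 1 was lower at an unadjusted p under 0.05. Between G659fs and R117fs 3 were higher, ZC3H12A by 0.63 ± 0.17, the linear-chain deubiquitinase OTULIN by 0.32 ± 0.08 and CYLD by 0.27 ± 0.08, and NKIRAS2 was lower (-0.41 ± 0.09). The nuclear IkappaB-like genes BCL3, NFKBIZ and NFKBID were not called against GFP in any group. NFKBID was higher in G659fs than in WT (0.50 ± 0.13) and NFKBIZ higher in G659fs than in R117fs (0.47 ± 0.15).

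Of 21 listed effector targets of NF-kappaB 14 were tested; the other 7, among them TNF and IL6, were at or under 0.647 CPM in every library. CXCL8, CXCL1 and CCL20 were under the filter's cutoff of 0.321 CPM in at least 3 of the 4 GFP libraries and were tested because of the groups where they were higher, so they are given by their values and left out of the counts. Of the other 11, 8 were called higher and 0 lower in WT, 1 and 0 in R117fs, and 8 and 0 in G659fs, each against GFP. Between R117fs and WT 0 were called higher and 4 lower (4.5% and 3.62% of all tested genes). Between G659fs and WT it was 1 and 0 (2.32% and 3.35%), and between G659fs and R117fs 9 and 0 (6.35% and 8.02%). The neutrophil chemokine CXCL8 was at 0.276 ± 0.117 CPM in GFP, 3.92 ± 1.43 in WT, 0.350 ± 0.218 in R117fs and 6.62 ± 1.28 in G659fs (SD, n = 4). The chemokine CCL20 had 1 to 3 reads per GFP library, 7 to 20 per WT library, 0 to 3 per R117fs library and 4 to 23 per G659fs library, and CXCL1 had 1 to 4, 5 to 13, 0 to 4 and 8 to 19. The cytokine gene IL32 was the 1 effector called in R117fs (1.02 ± 0.23), and it rose by 2.24 ± 0.20 in WT and 2.15 ± 0.20 in G659fs; R117fs lay below WT by -1.22 ± 0.18. The growth arrest gene GADD45B rose by 1.03 ± 0.25 in WT, whose libraries (16.71 to 39.72 CPM) overlapped those of GFP (10.75 to 16.82). It was at 33.37 to 43.89 CPM in G659fs and at 9.911 to 21.81 in R117fs. ICAM1, an adhesion molecule, was higher in G659fs than in WT (0.68 ± 0.15), and the chemokine CXCL2 was higher in G659fs than in R117fs (1.63 ± 0.29). This list and the members were chosen with earlier results of these libraries known.

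**Figure D5:**
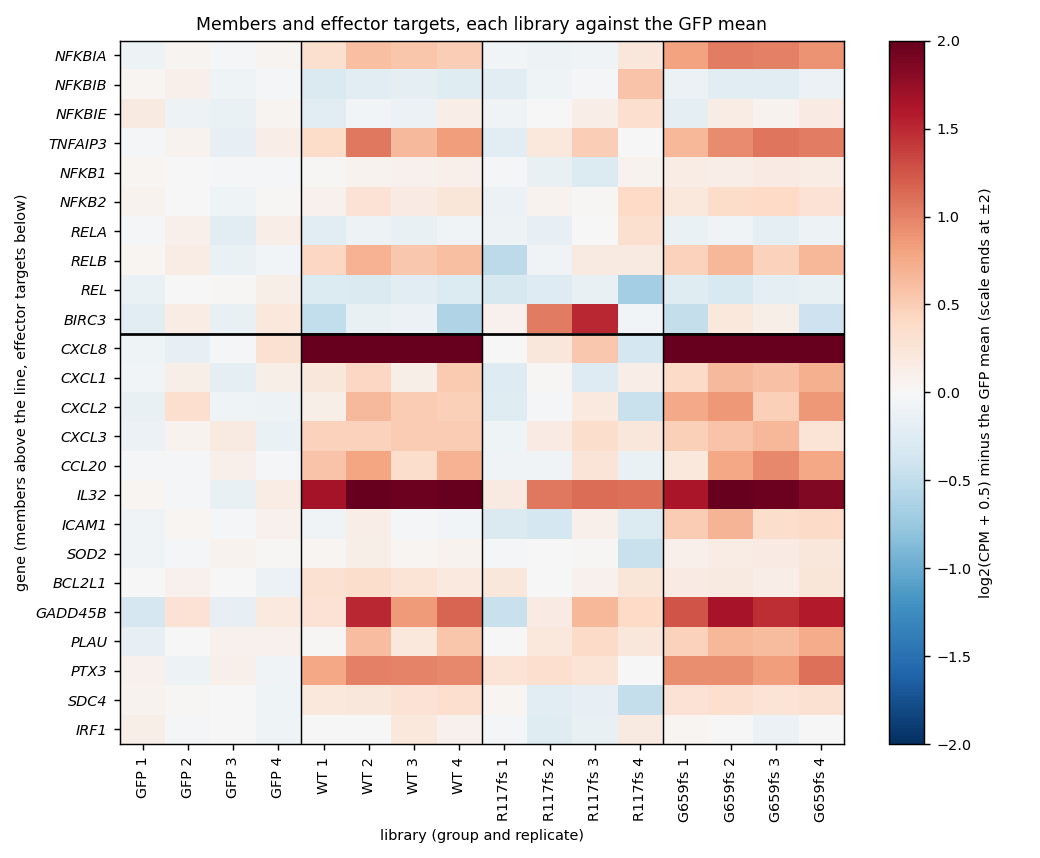
log2(CPM + 0.5) of the members (above the line) and the 14 tested effector targets (below it) in each library, minus the mean of the 4 GFP libraries; the colour scale ends at ±2. CXCL8, IL32, TNFAIP3 and NFKBIA are red across WT and G659fs, and BIRC3 is red in R117fs replicates 2 and 3.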

How the data were processed

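The submitters' processing notes name kallisto 0.45.1 and GRCh38; they give neither annotation release nor run options. Each deposited file holds an estimated count and a TPM value for each of 178136 transcripts, and the effective length, which per the file headers is in the same table and was used for the length offset alone. Of these transcripts 162453 (91.2%) matched GENCODE 29 by identifier; the rest held 1.90% to 2.22% of a library's counts and were left out. Estimated counts were summed per gene and rounded. The test was edgeR 4.0.16 (R 4.3.3): filterByExpr, TMM, robust quasi-likelihood fit of all 16 libraries, Benjamini-Hochberg adjustment over 16787 genes, call at adjusted p under 0.05. Standard errors come from the fold change and F value. Depth was 20364357 to 46779570 counts per library. Even the most alike replicates (chi-square 3.36 per degree of freedom) differed beyond sampling noise, so none was taken for a duplicate. The fit was tested on simulated data. Reads shared by overlapping genes cannot be told apart, as the strand setting is not given. Promoter windows were searched for the NF-kappaB consensus, a choice made with the windows in view. All members are named; of each pathway list, called genes are named, at most the 4 largest changes per comparison. Members and lists were chosen with earlier results of these data known. SOD2 has 2 identifiers; ENSG00000112096 was used. Alternatives were RLE factors, no filter, DESeq2 1.42.0, a replicate block, 8 libraries alone, length offset, GC trend removed and leaving out each library.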

Additional observations from a re-analysis of the deposited data

Results flagged for a closer look

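Each member was looked at within each group for a library far from the other 3, on the log2 CPM scale. Of 40 such groups 1 had one: NFKBIA in R117fs replicate 4, at 26.3 CPM against 20.7 to 21.4 in the other R117fs libraries, with a gap to the nearest library that was 0.858 of the group's range, above Dixon's 95% critical value for 4 libraries. By chance about 1 in 20 groups would be picked out.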

How the results depend on the processing

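The rises of NFKBIA, TNFAIP3 and RELB in WT and G659fs against GFP, and of NFKB2 in G659fs, stayed called under each of 16 alternatives. The number of members called depended on the setting elsewhere, as did the share of all tested genes called, given in brackets. For R117fs against GFP (1 called) it was 2 with DESeq2 (19.5%), 2 with the replicate block (17.3%), 2 with the GC trend removed (27.5%), 0 with the 8 libraries alone (3.67%; 1 higher and 1 lower at an unadjusted p under 0.05), and 0 to 2 with a library left out (0 without GFP replicate 4; 2 without R117fs replicate 1 or 4). For G659fs against GFP (4) it was 7 with the 8 libraries alone (43.1%), 8 with the GC trend removed (40.3%), 4 to 7 with a library left out, the 7 without R117fs replicate 4 (39.4%), a setting added after seeing the data. For R117fs against WT (4) it was 0 with the 8 libraries alone (0.938%), 1 with the length offset (5.09%) and 2 to 6 with a library left out (2 without WT replicate 4). For G659fs against WT (1) it was 0 with the length offset (2.61%; 1 at an unadjusted p under 0.05). For G659fs against R117fs (5) it was 3 with the 8 libraries alone (4.86%) and 3 to 6 with a library left out (3 without replicate 2 or 3 of either group). For WT against GFP (4) it was 3 to 6. Of 930 single-member values under alternatives, 37 lost a call, 29 gained one and 0 of the called ones changed sign. The replicate numbers were not used to pair the libraries in the main fit. Deviations of same-numbered libraries correlated above 0.1 in 5 of 24 pairs (range -0.0619 to 0.160). Yet 8 of 16 libraries were most like one with their own number, where 4 would be if the numbers carried nothing. Whether the numbers pair the libraries is not settled by these values. With the replicate block as a covariate the counts of members called were 4, 2, 4, 4, 1 and 5. The order is WT, R117fs and G659fs against GFP, R117fs and G659fs against WT, and G659fs against R117fs. In the same order 23.5%, 17.3%, 27.2%, 11%, 8% and 16.3% of all tested genes were called, each share above that of the main fit. BIRC3 was called in R117fs against GFP with the block (edgeR adjusted p = 0.0188). BIRC3 had 22 to 124 reads per library, and its lost calls were not tested for a cause.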
